A study of Mus musculus with 5 samples.

Results

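Cadherins are membrane proteins that hold cells together in the presence of calcium, and protocadherins are their larger sister family, expressed mostly in the nervous system. The genes described here are all rows of the deposited matrix whose symbol is Cdh followed by a number or begins with Pcdh. This rule found 80 of the 17267 rows that name a mouse gene, 21 cadherins and 59 protocadherins. Among the cadherins were 5 classical genes of type I, 13 of type II and 3 others. The protocadherins comprised 4 of the delta-1 group, 5 of the delta-2 group, 3 further non-clustered genes and 47 genes of the Pcdha, Pcdhb and Pcdhg clusters.

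Classical cadherins bind the same cadherin, or a close relative, on the neighbouring cell and reach the actin skeleton through catenins. Combinations of type II cadherins and of delta protocadherins are known to mark groups of neurons and to take part in sorting them and in matching synaptic partners. The clustered protocadherins are chosen in varying sets by individual neurons and serve in telling a cell's own branches from those of others.

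The cells came from lumbar dorsal root ganglia (DRG) of 5 adult, untreated, wild type C57BL/6 mice. Their transcripts were tagged with unique molecular identifiers (UMIs) at the 3′ end in droplets. The authors' annotation gave each of 3352 cells to 1 of 14 types, 12 of them neuronal. All mice belonged to the same condition, so the question is how the family differs between cell types.

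Neurofilament (NF) types are large-diameter neurons that serve touch and body position, non-peptidergic (NP) and peptidergic (PEP) types are mostly small pain, itch and temperature neurons, and Th neurons are touch-sensitive fibres that conduct slowly. The annotated types were NF_Calb1 with 180 cells, NF_Pvalb with 113, NF2_Ntrk2.Necab2 with 58, NP_Mrgpra3 with 104, NP_Mrgprd with 900 and NP_Nts with 400. There were 163 cells of PEP1_Dcn, 181 of PEP1_S100a11.Tagln2, 342 of PEP1_Slc7a3.Sstr2, 206 of PEP2_Htr3a.Sema5a, 168 of PEP3_Trpm8 and 232 of Th, beside 249 satellite glia and 56 endothelial cells. The name NF_Calb1 is spelled NF_Ca1b1 in the annotation. Each of the 16 genes that occur in the type names had its highest level in the type it names.

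The libraries, numbered 1 to 5, held 13050389, 42666988, 28667752, 51281258 and 88886975 UMIs in 164, 539, 474, 805 and 1370 cells. A total of 7 barcodes occurred in more than 1 library, in 14 cells. Levels are CPM, the UMIs of a gene summed over all cells of a type in a library and scaled to the total UMIs of that sum, given as mean ± SD over the 5 libraries. A 3′ UMI counts a transcript whatever its length, so levels of different genes are compared on the CPM scale.

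The whole family took 74412 UMIs, or 0.0331% of 224553362. Of the 80 members 39 had under 100 UMIs, and the 20 with the most held 67283 of the family's UMIs. In some type, 26 members exceeded 10 CPM. For 9 of those, each library of the highest type lay above each library of the next type: Cdh3, Cdh5, Cdh8, Cdh9, Cdh10, Cdh12, Pcdh1, Pcdh8 and Pcdh18.

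Summed over all members, the family was most abundant in endothelial cells, at 1516 ± 214 CPM (n = 5). Among neurons it was highest in NF_Calb1, at 776 ± 108 CPM, followed by NF_Pvalb at 678 ± 150.3 and PEP2_Htr3a.Sema5a at 642 ± 87.4. The lowest sum was that of NP_Mrgpra3, at 138 ± 23.1 CPM, below NP_Mrgprd at 206 ± 27.6 and NP_Nts at 227 ± 92.1. Type I cadherins were the main part in NP_Mrgprd, with 104 ± 11.8 CPM. Delta-1 protocadherins ranged from 4.49 ± 1.73 CPM in NP_Nts to 329 ± 36.8 in NF_Calb1. Delta-2 protocadherins ranged from 11.4 ± 5.05 CPM in NP_Mrgprd to 265 ± 61.3 in PEP2_Htr3a.Sema5a among neurons, and type II cadherins from 3.55 ± 1.58 CPM in PEP1_Slc7a3.Sstr2 to 125 ± 30.9 in NF_Pvalb.

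**Figure D1:**
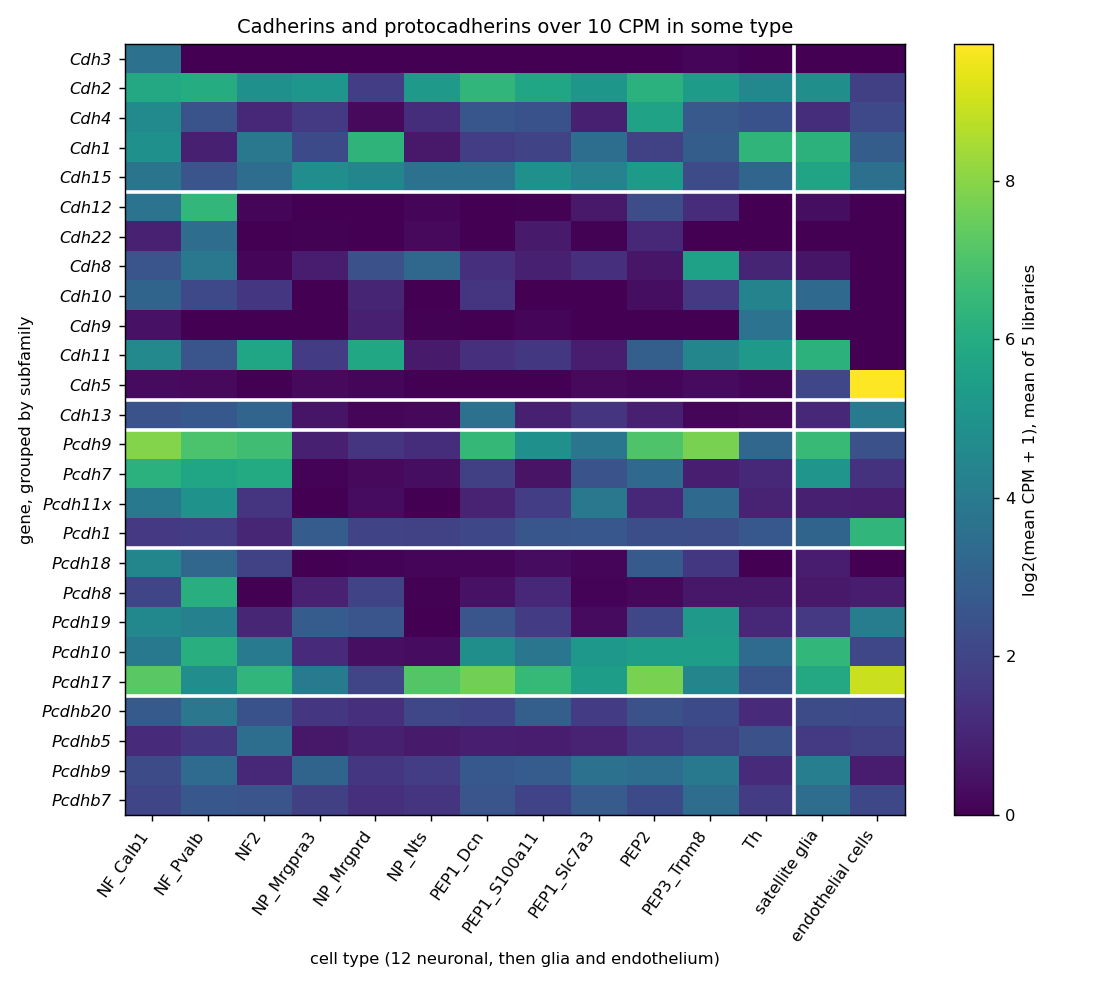
Mean level over 5 libraries, as log2(CPM + 1), of the 26 members that exceeded 10 CPM in some type (rows, grouped by subfamily) in the 14 cell types (columns). Cdh5 stands out in endothelial cells at 844 CPM, Cdh12 in NF_Pvalb at 85.0 CPM, and the delta-1 genes Pcdh9 and Pcdh7 are dark in NP_Mrgpra3, at 0.797 and 0.0797 CPM.

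Each neuron type was compared with the other neurons of the same libraries, and glia and endothelial cells with all neurons, by edgeR's quasi-likelihood test on summed UMIs. A call needed a Benjamini-Hochberg adjusted p under 0.01 over all genes tested and a 2-fold difference. Since the types had been clustered from these counts, the tests describe how far apart the types lie. Over the 14 comparisons 45 members passed the filter on low counts at least in 1 comparison, 20 in all of them, and 35 in none. There were 85 calls of higher and 114 of lower expression. Asking for a UMI in at least 25% of the cells of the higher group ended 29 of the 97 calls on members named by the rule, among them those of Cdh6 and Cdh19 in satellite glia, of Pcdhac1 in PEP2_Htr3a.Sema5a and of Pcdh11x in PEP1_Slc7a3.Sstr2. After thinning to 10000 UMIs only 7 to 13 members per comparison could be tested, and 32 of the 97 calls could not. A scarce member passes the filter mainly through a type where it is high, so the counts of members called are descriptions and nothing in them is called particular to the family.

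NF_Calb1 neurons had the highest levels of the delta-1 genes Pcdh9 and Pcdh7 and were alone in carrying P-cadherin, Cdh3, above 1 CPM. Of the 29 members tested in NF_Calb1, 11 were called higher, against 15.0% of all genes tested, and 1 lower, against 14.7%. Their median log2 fold was 0.72, and that of all genes tested was -0.02. Higher calls were thus more frequent than the background and lower calls less so.

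Cdh3 stood in NF_Calb1 at 7.88, 7.65, 16.8, 9.98 and 13.7 CPM in libraries 1 to 5 (11.2 ± 3.96). All other neurons together held 2 UMIs of Cdh3 against 183 in NF_Calb1, a ratio of 1258 with a counting interval from 343 to 10460.0. Every library of NF_Calb1 lay above every library of the other neurons (edgeR, log2 fold 9.45, adjusted p = 5.7e-11, higher in 5 of 5 libraries). Pcdh18, a delta-2 gene, stood at 16.5, 17.6, 24.2, 22.3 and 25.5 CPM, with 1.01 CPM in other neurons (log2 fold 4.30, adjusted p = 4e-11, 5 of 5 libraries). Its 5 values lay close together and clear of the other neurons.

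Pcdh7 stood at 65.9, 66.8, 109 and 61.0 CPM in the libraries 1 to 4 of NF_Calb1 and at 64.4 in library 5, against 5.21 in other neurons (log2 fold 3.77, adjusted p = 6.8e-11, 5 of 5 libraries). Library 3 was the high one, and all libraries exceeded those of the pooled other neurons, though not those of NF2_Ntrk2.Necab2. Pcdh9 reached 218, 245, 272, 219 and 241 CPM in NF_Calb1, the highest neuronal level of any member, against 34.9 in other neurons (log2 fold 2.69, adjusted p = 1.2e-09, 5 of 5 libraries). The spread over libraries was small beside this difference. Cdh4, known as R-cadherin of the retina, was also higher in NF_Calb1, at 23.4 ± 7.76 CPM against 6.01. Pcdh1 was the member called lower, at 2.10 ± 0.857 CPM against 3.65 (log2 fold -1.03, adjusted p = 0.0028, lower in 5 of 5 libraries). Its call was lost without library 2 (-0.96, adjusted p = 0.017) and without library 5 (-0.74, adjusted p = 0.025).

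Within NF_Calb1, Cdh3 and Cdh12 were found in different cells. Cdh3 had a UMI in 54 of 180 cells, or 30.0% (6.67% after thinning each cell to 10000 UMIs), and the 10% of cells with the most Cdh3 held 71.0% of its UMIs. Cdh12 had a UMI in 38 cells, or 21.1% (8.33% thinned), and the top 10% held 81.0%. Cells with both numbered 1, while 37 of the cells without Cdh3, or 29.4%, had Cdh12. In NP_Mrgprd, where both genes were nearly absent, the share was 0.111% for either gene (thinned, 0.111% for Cdh3 and 0 for Cdh12), at a median depth of 105150.0 UMIs per cell against 77900.0 in NF_Calb1. The cells with Cdh3 were somewhat deeper, with a median of 94000.0 UMIs, than those without, with 73350.0. Pcdh18 was in 30 of the 54 cells with Cdh3 and in 70.6% of those without. These pairs were chosen after the values were seen, and the pattern was not tested.

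NF_Pvalb neurons, which include the sensors of muscle length, were set apart by the type II cadherin Cdh12 and the delta-2 gene Pcdh8, and nearly lacked E-cadherin, Cdh1. Of 28 members tested in NF_Pvalb, 18 were called higher, against 13.9% of all genes tested, and 4 lower, against 16.4%. The median log2 fold was 1.44 over these members and -0.04 over all genes tested. Lower calls were near the background, and higher calls were above it.

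Cdh12 stood in NF_Pvalb at 128.5 CPM in library 1 and at 77.1, 70.5, 77.9 and 71.0 in libraries 2 to 5, against 1.68 in other neurons. Pcdh8, a synaptic protocadherin, stood at 136 CPM in library 1 and at 46.4, 55.4, 41.1 and 54.5 in libraries 2 to 5, against 1.61. For both genes library 1, with 6 cells, was the highest, and the groups did not overlap. The edgeR log2 folds were 5.82 for Cdh12 (adjusted p = 8.6e-10) and 5.24 for Pcdh8 (adjusted p = 7.8e-11), each higher in 5 of 5 libraries. Cdh12 had a UMI in 92.9% of NF_Pvalb cells (47.8% thinned) and in 0.803% of satellite glia (0.803% thinned), at median depths of 66720.0 and 17729.0 UMIs. Pcdh8 was found in 74.3% of NF_Pvalb cells (35.4% thinned) and in 0.5% of NP_Nts cells (0 thinned), at median depths of 66720.0 and 53136.5 UMIs. Of the 84 NF_Pvalb cells with Pcdh8, 79 also had Cdh12.

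Among the delta-1 genes in NF_Pvalb, Pcdh11x reached its highest level of all types, 29.9 ± 7.54 CPM against 2.93 in other neurons (edgeR, log2 fold 3.48, adjusted p = 6.7e-07, 5 of 5 libraries). Pcdh10 stood at 63.3, 81.0, 47.0, 77.2 and 72.5 CPM against 11.7 (log2 fold 2.54, adjusted p = 1.5e-09, 5 of 5 libraries). Cdh2, the neural or N-cadherin, was higher as well, at 63.8 ± 8.30 CPM against 29.0 (log2 fold 1.12, adjusted p = 2.6e-06, 5 of 5 libraries), but was not called after thinning to 10000 UMIs (0.81, adjusted p = 0.0016). The type II gene Cdh22 was highest here, at 15.3, 18.8, 0, 10.6 and 5.48 CPM from 62 of its 108 UMIs, with 21 UMIs in PEP2_Htr3a.Sema5a, and it did not pass the filter on low counts, so it was not tested. Cdh1 was lower, with 7 UMIs in NF_Pvalb and 9354 in other neurons (0.827 ± 0.847 against 43.0 CPM; log2 fold -5.55, adjusted p = 4.6e-10, lower in 5 of 5 libraries). Pcdh17, a delta-2 gene, was called lower (26.2 ± 23.0 against 66.7 CPM; log2 fold -1.70, adjusted p = 0.0012, lower in 4 of 5 libraries), but not without library 2 (-1.60, adjusted p = 0.01), and library 1 alone held 67.1 CPM.

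NF2_Ntrk2.Necab2 neurons shared high Pcdh7 and Pcdh9 with the other NF types and had the highest level of the clustered gene Pcdhb5. In NF2_Ntrk2.Necab2, 6 of 28 members tested were called higher, against 7.75% of all genes tested, and 7 lower, against 12.8%. Over the members the median log2 fold was -0.12, and over all genes tested -0.07. The share of higher calls was above the background. Lower calls fell to 4 without library 5 and to 0 of 8 tested after thinning to 10000 UMIs, where 2 were higher. DESeq2, which tested all 80 members, called 9 higher and 7 lower.

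Pcdhb5 stood in NF2_Ntrk2.Necab2 at 7.17, 11.9, 6.50, 11.2 and 15.9 CPM against 1.30 in other neurons (edgeR, log2 fold 3.25, adjusted p = 4.5e-08, 5 of 5 libraries). No library overlapped with the pooled other neurons, but Th reached 6.72 CPM. Pcdhb5 had a UMI in 56.9% of these cells (10.3% thinned), which had a median of 96530.5 UMIs, and in 3.25% of NP_Nts cells (1.0% thinned), with a median of 53136.5. Pcdh7 stood at 100.4, 61.7, 43.9, 50.1 and 45.2 CPM against 10.3 (log2 fold 2.49, adjusted p = 9.9e-06, 5 of 5 libraries). Library 1, with 3 cells, was the highest. Cdh11, known from bone-forming cells as osteoblast cadherin, stood at 52.4 ± 10.1 CPM and was not called (log2 fold 0.93, adjusted p = 2.7e-05, higher in 5 of 5 libraries). Pcdh9 was called higher, at 107 ± 13.1 CPM against 50.6 (log2 fold 1.17, adjusted p = 0.00027, 5 of 5 libraries), but not after thinning to 10000 UMIs (0.89, adjusted p = 0.013). Pcdh8 had 0 UMIs here and 765 in other neurons, so it was at least 6.85-fold lower (edgeR, adjusted p = 0.0018, lower in 5 of 5 libraries). That call was lost without library 5 (adjusted p = 0.012). Pcdhb9 was called lower (1.10 ± 1.13 against 4.62 CPM; log2 fold -1.66, adjusted p = 0.0065), but not with the library as a replicate block (log2 fold -1.58, adjusted p = 0.011). Leaving out library 1, 2, 3 or 5 also ended the call of Pcdhb9, at adjusted p = 0.016, 0.014, 0.014 and 0.048, as did keeping libraries with at least 10 cells (-1.12, adjusted p = 0.084).

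NP_Mrgpra3 neurons, itch-sensing cells, had the least of the family. None of 26 members tested in NP_Mrgpra3 was called higher by edgeR, against 2.97% of all genes tested; 3 were higher at an unadjusted p under 0.05, and DESeq2 called 1. Without library 1 or 3, 1 member was called higher. The same number was called after thinning to 10000 UMIs, without the filter on low counts and in libraries with at least 10 cells. Of the 26, 13 were called lower, above the background of 10.8%. Members tested had a median log2 fold of -1.67, all genes tested one of -0.06.

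Cdh12 had 0 UMIs in NP_Mrgpra3 and 848 in other neurons, at least 12.9-fold lower (edgeR, adjusted p = 0.00085, lower in 5 of 5 libraries). Pcdh18 also had 0 UMIs, at least 8.22-fold lower (adjusted p = 0.0013). Pcdh9 stood at 0, 0.739, 0.836, 0.398 and 2.01 CPM, against 54.3 in other neurons (log2 fold -5.43, adjusted p = 8.9e-08, lower in 5 of 5 libraries). Pcdh7 had 1 UMI, a ratio of 0.0104 to other neurons with a counting interval from 0.000262 to 0.0578. Among the classical genes, N-cadherin Cdh2 stood at 33.3 ± 9.98 CPM and M-cadherin Cdh15, known from muscle precursors, at 26.5 ± 8.85 CPM.

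NP_Mrgprd neurons, the most numerous type, paired E-cadherin with Cdh11 and lacked N-cadherin almost wholly. In NP_Mrgprd, 2 of 39 members tested were called higher, near the 5.97% of all genes tested, and 20 lower, above the 19.7%. Members had a median log2 fold of -1.003, against -0.09 over all genes tested.

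Cdh1 stood in NP_Mrgprd at 74.1, 91.0, 86.7, 66.6 and 82.2 CPM against 16.9 in other neurons (edgeR, log2 fold 2.50, adjusted p = 2.2e-08, 5 of 5 libraries). Cdh11 stood at 49.2, 55.7, 68.1, 49.9 and 56.9 CPM against 12.3 (log2 fold 2.42, adjusted p = 3.9e-10, 5 of 5 libraries). For neither gene did the libraries overlap with the pooled other neurons, but Cdh1 overlapped with Th and Cdh11 with NF2_Ntrk2.Necab2. Cdh1 had a UMI in 97.9% of NP_Mrgprd cells (53.9% thinned) and in 1.25% of NP_Nts cells (0.5% thinned), at median depths of 105150.0 and 53136.5 UMIs. Both Cdh1 and Cdh11 were found in 848 of the 900 cells. Cdh2, by contrast, stood at 2.70, 3.11, 3.21, 1.75 and 1.43 CPM against 47.9 in other neurons (log2 fold -4.21, adjusted p = 1.2e-10, lower in 5 of 5 libraries). Its level was the lowest of all 14 types, close to that of endothelial cells at 2.59 ± 4.05 CPM.

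Of the delta protocadherins, 3 of 4 delta-1 genes and 3 of 5 delta-2 genes were called lower in NP_Mrgprd, against 19.7% of all genes, and Pcdh1, Pcdh8 and Pcdh19 were not. Pcdh17 stood at 3.10 ± 2.48 CPM against 102 in other neurons (edgeR, log2 fold -5.09, adjusted p = 7.1e-08), and Pcdh9 at 1.73 ± 0.616 CPM against 82.6 (log2 fold -5.30, adjusted p = 1.4e-10), each lower in 5 of 5 libraries. Pcdh10 stood at 0.329 ± 0.241 CPM against 22.2 (log2 fold -5.86, adjusted p = 2.7e-11, lower in 5 of 5 libraries). Cdh12 had 1 UMI in 900 cells, a ratio of 0.00162 to other neurons with a counting interval from 4.1e-05 to 0.00907. Of 15 Pcdhb genes tested in NP_Mrgprd, 6 were called lower, against the same 19.7%, but only Pcdhb9 was called whichever library was left out. Pcdhb3 lost its call without library 5 (adjusted p = 0.027), Pcdhb5 without library 4 or 5 (0.012 and 0.017), Pcdhb18 without library 2, 3 or 5 (0.031, 0.012 and 0.032) and Pcdhb20 without library 3 (log2 fold -0.96). Pcdhb9 stood at 1.88 ± 0.573 CPM against 6.24 (log2 fold -1.44, adjusted p = 2.5e-05, 5 of 5 libraries). Pcdhb7 (log2 fold -1.003, adjusted p = 6.6e-05, lower in 5 of 5 libraries) lay at the 2-fold limit and was not called with the library as a replicate block (-0.99, adjusted p = 8.9e-05) or by DESeq2 (-0.98, adjusted p = 2.1e-05), nor without library 1, 2 or 4, where its log2 fold was -0.99, -0.95 and -0.97.

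NP_Nts neurons, another itch-related type, combined high Pcdh17 with little of the other delta protocadherins and of Cdh1. None of 27 members tested in NP_Nts was called higher by edgeR, against 6.51% of all genes tested; 2 were higher at an unadjusted p under 0.05, and DESeq2 called 0. Without library 4, 1 member was called higher, as also after thinning to 10000 UMIs and without cells over 10% mitochondrial. With the library as a replicate block, or at an adjusted p under 0.05, 1 was called as well. Dropping the filter on low counts gave 2. Lower calls numbered 14, above the background of 17.0%. The median log2 fold was -1.68 for the members and -0.07 for all genes tested.

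Pcdh17 reached 108, 187, 249, 53.9 and 87.6 CPM in NP_Nts, so that the libraries differed widely. It was not called by group alone (edgeR, log2 fold 1.18, adjusted p = 0.014) and was called higher with the library as a replicate block (log2 fold 1.14, adjusted p = 2e-07). Pcdh19, an X-linked delta-2 gene known for epilepsy in females, had 0 UMIs in the 400 NP_Nts cells and 1181 in other neurons. It was at least 42.4-fold lower (edgeR, adjusted p = 6.2e-06, lower in 5 of 5 libraries). Pcdh11x and Cdh10 also had 0 UMIs and were at least 23.8-fold and 17.4-fold lower. Cdh1 had 5 UMIs, at 1.46, 0.474, 0.883, 0 and 0.111 CPM against 45.3 in other neurons (log2 fold -7.56, adjusted p = 1.3e-10, lower in 5 of 5 libraries). All values of Cdh1 in NP_Nts lay below those of the pooled other neurons.

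PEP1_Dcn neurons had the highest Cdh2 of all types, with high Pcdh17 and the atypical members Cdh13 and Pcdh15. In PEP1_Dcn, 5 of 28 members tested were called higher, against 7.66% of all genes tested, and 7 lower, against 7.64%. Without library 2 the lower calls were 4, as those of Cdh8, Pcdh7 and Pcdh18 were lost (adjusted p = 0.022, 0.013 and 0.014 by edgeR). Over the members the median log2 fold was -0.20, and over all genes tested -0.01.

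Cdh2 stood in PEP1_Dcn at 78.7, 105.1, 80.8, 80.0 and 78.0 CPM against 27.9 in other neurons (edgeR, log2 fold 1.63, adjusted p = 9.5e-08, 5 of 5 libraries). Library 2 was the highest, and all libraries were above the pooled other neurons, but PEP2_Htr3a.Sema5a overlapped, reaching 89.55 CPM. Cdh13, or T-cadherin, is held in the membrane by a lipid anchor and binds adiponectin. It stood at 13.7, 6.98, 9.12, 14.6 and 11.97 CPM against 1.10 (log2 fold 3.21, adjusted p = 1.5e-07, 5 of 5 libraries). Pcdh15, which with Cdh23 forms the tip link of inner ear hair cells, stood at 3.42, 6.16, 7.17, 5.56 and 8.74 CPM against 1.09 (log2 fold 2.76, adjusted p = 1.9e-06, 5 of 5 libraries). Neither gene overlapped with the pooled other neurons, but Cdh13 overlapped with NF2_Ntrk2.Necab2 and Pcdh15 with PEP2_Htr3a.Sema5a. Pcdh15 had a UMI in 30.7% of PEP1_Dcn cells (6.75% thinned) and in 0 of 249 satellite glia (0 thinned), at median depths of 49516.0 and 17729.0 UMIs. At the depth of glia a count of 0 does not show that the gene is absent from them. Its partner Cdh23 had 15 UMIs in all 3352 cells. Pcdh17 stood at 203 ± 59.1 CPM against 59.1 (log2 fold 1.82, adjusted p = 7.9e-05, 5 of 5 libraries). Cdh12 had 0 UMIs and was at least 11.8-fold lower (adjusted p = 0.00069, lower in 5 of 5 libraries).

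PEP1_S100a11.Tagln2 neurons had no member called higher. In PEP1_S100a11.Tagln2 edgeR called 0 of 27 members higher, against 4.76% of all genes tested; 4 were higher at an unadjusted p under 0.05, and DESeq2 called 0. It called 8 lower, above the background of 7.75%. Members tested had a median log2 fold of -0.57, all genes tested one of 0.00. Cdh10 had 0 UMIs here and 485 in other neurons, at least 7.47-fold lower (edgeR, adjusted p = 0.0026, lower in 5 of 5 libraries), and the call was lost without library 2 (adjusted p = 0.013). Without library 2, 5 members were called in place of 8. Cdh2 stood at 51.4 ± 4.77 CPM, Cdh15 at 28.3 ± 8.50 and Pcdh17 at 90.8 ± 24.9, and Cdh11 was low, at 2.02 ± 2.76 CPM against 30.4 (edgeR, log2 fold -4.31, adjusted p = 3.8e-06, lower in 5 of 5 libraries).

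PEP1_Slc7a3.Sstr2 neurons had more of Pcdh10, Pcdh11x and a few clustered genes than other neurons, and almost no type II cadherin. In PEP1_Slc7a3.Sstr2, 5 of 28 members tested were called higher, against 7.77% of all genes tested, and 10 lower, against 11.2%. Both shares exceeded the background, and the median log2 fold was -0.22 for the members and -0.04 for all genes tested. Asking for a UMI in at least 25% of the cells of the higher group left 1 call higher and 3 lower. The calls of Pcdh11x, Pcdhb9 and Pcdhb7 were among those that ended.

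Pcdh10 stood in PEP1_Slc7a3.Sstr2 at 30.5, 49.4, 37.3, 29.8 and 31.6 CPM against 12.2 in other neurons (edgeR, log2 fold 1.56, adjusted p = 3.9e-07, 5 of 5 libraries). Pcdh11x stood at 30.5 CPM in library 1 and at 10.4, 13.4, 6.02 and 8.66 in the rest, against 3.24 (log2 fold 1.95, adjusted p = 0.001, 5 of 5 libraries). Library 1 was the high one for Pcdh11x, and its groups overlapped, whereas those of Pcdh10 did not overlap with the pooled other neurons. Pcdhb9 and Pcdhb7 were higher too, at 11.6 ± 3.53 CPM against 4.08 (log2 fold 1.56, adjusted p = 1.7e-05) and 5.94 ± 2.42 against 2.62 (log2 fold 1.30, adjusted p = 0.00025), in 5 of 5 libraries each. Cdh10 had 0 UMIs and was at least 10.5-fold lower (adjusted p = 0.00043). Cdh11 had 7 UMIs, or 0.718 ± 0.887 CPM against 31.1 (log2 fold -5.88, adjusted p = 9.3e-11, lower in 5 of 5 libraries).

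PEP2_Htr3a.Sema5a neurons had the highest Cdh4 of all types, with high Pcdh17, Cdh2, Cdh15 and Pcdh10. In PEP2_Htr3a.Sema5a, 11 of 31 members tested were called higher, above the 9.08% of all genes tested, and 5 lower, against 9.41%, while DESeq2, which tested all 80, called 13 and 9. The median log2 fold was 0.34 for the members and -0.02 for all genes tested.

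Cdh4 stood in PEP2_Htr3a.Sema5a at 34.8, 45.8, 54.0, 46.0 and 55.3 CPM against 3.92 in other neurons (edgeR, log2 fold 3.64, adjusted p = 2.4e-08, 5 of 5 libraries). Its libraries did not overlap with the pooled other neurons, but NF_Calb1 reached 35.1 CPM. Cdh4 had a UMI in 90.3% of these cells (36.9% thinned) and in 1.78% of NP_Mrgprd cells (0.222% thinned), at median depths of 73919.0 and 105150.0 UMIs. Cdh15 stood at 43.7, 35.6, 29.8, 39.6 and 41.6 CPM against 16.8 (log2 fold 1.11, adjusted p = 9.7e-06, 5 of 5 libraries). Pcdh17 stood at 168, 225, 309, 176 and 192 CPM, the highest neuronal level of that gene, against 50.9 (log2 fold 2.04, adjusted p = 1.8e-05, 5 of 5 libraries). Pcdhac1, the member of the alpha cluster named by the rule, had 38 UMIs at 2.72 ± 1.41 CPM against 0.251 (log2 fold 3.25, adjusted p = 1.8e-05, 5 of 5 libraries). Pcdh15 was at 6.28 ± 2.35 CPM, a level like that of PEP1_Dcn, and 45 of its 47 positive cells also had Cdh4. Pcdh8 had 3 UMIs, a ratio of 0.0482 with a counting interval from 0.00992 to 0.141. With the library as a replicate block Pcdh11x (log2 fold -1.42, adjusted p = 0.0045) and Pcdh19 (-1.07, adjusted p = 0.0054) were also called lower, and by group alone they were not, at adjusted p = 0.017 and 0.01.

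PEP3_Trpm8 neurons, which sense cold, had the highest levels of the type II gene Cdh8 and of Pcdh19. In PEP3_Trpm8, 5 of 26 members tested were called higher, above the 8.02% of all genes tested, and 4 lower, against 10.9%, while DESeq2, which tested all 80, called 9 and 5. Over the members the median log2 fold was 0.09, and over all genes tested -0.03.

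Cdh8 stood in PEP3_Trpm8 at 45.1, 42.5, 54.0, 42.6 and 47.0 CPM against 3.74 in other neurons (edgeR, log2 fold 3.64, adjusted p = 8.7e-11, 5 of 5 libraries). Its libraries lay far above the next type, NF_Pvalb at 13.9 ± 3.80 CPM. Cdh8 had a UMI in 64.9% of PEP3_Trpm8 cells (36.9% thinned) and in 1.20% of satellite glia (1.20% thinned), at median depths of 30800.5 and 17729.0 UMIs. Pcdh19 stood at 54.1, 33.7, 34.7, 34.8 and 30.3 CPM against 5.63 (log2 fold 2.72, adjusted p = 3.8e-07, 5 of 5 libraries). Library 1, with 9 cells, was the highest, and no library overlapped with the pooled other neurons, but NF_Calb1, at 22.4 CPM on average, reached 31.04. Pcdh9 was nearly as high as in NF_Calb1, at 243, 194, 229, 197 and 217 CPM against 47.5 (log2 fold 2.19, adjusted p = 3.4e-07, 5 of 5 libraries), and the libraries of both types overlapped. Pcdh7, the other delta-1 gene of the NF types, had 5 UMIs (0.762 ± 0.707 against 11.8 CPM; log2 fold -3.63, adjusted p = 0.00037, lower in 5 of 5 libraries). With the library as a replicate block Pcdh11x was called higher (log2 fold 1.43, adjusted p = 0.0045; 0.053 by group alone) and Pcdh8 lower (-2.27, adjusted p = 0.0073; 0.014 by group alone).

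Th neurons were marked by the neighbouring type II genes Cdh9 and Cdh10 and carried as much Cdh1 as NP_Mrgprd. In Th, 4 of 26 members tested were called higher, above the 7.34% of all genes tested, and 12 lower, above the 12.4%, while DESeq2, which tested all 80, called 8 and 16. Members tested had a median log2 fold of -0.93, all genes tested one of 0.02.

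Cdh9 stood in Th at 10.6, 11.2, 12.2, 13.7 and 13.2 CPM against 0.383 in other neurons (edgeR, log2 fold 5.31, adjusted p = 2.5e-10, 5 of 5 libraries). Cdh10 stood at 27.9, 16.7, 17.2, 20.1 and 13.5 CPM against 1.38 (log2 fold 3.89, adjusted p = 6.1e-09, 5 of 5 libraries). All libraries of Th exceeded all others for both genes, with library 1 highest for Cdh10. Cdh9 had a UMI in 46.6% of Th cells (13.4% thinned) and in 0 of 249 satellite glia (0 thinned), at median depths of 56281.0 and 17729.0 UMIs. Cdh10 was found in 55.6% of the Th cells with Cdh9 and in 61.3% of those without. Cdh1 stood at 71.3, 99.9, 76.9, 68.4 and 84.7 CPM against 38.2 (log2 fold 1.11, adjusted p = 8.4e-06, 5 of 5 libraries), and its libraries overlapped with those of NP_Mrgprd. Cdh11 stood at 37.8 ± 8.50 CPM. Cdh12 and Pcdh18 had 0 UMIs and were at least 19.2-fold and 12.2-fold lower. Pcdh17 was lower as well, at 4.76 ± 1.94 CPM against 70.8 (log2 fold -3.93, adjusted p = 4.2e-07, lower in 5 of 5 libraries).

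**Figure D2:**
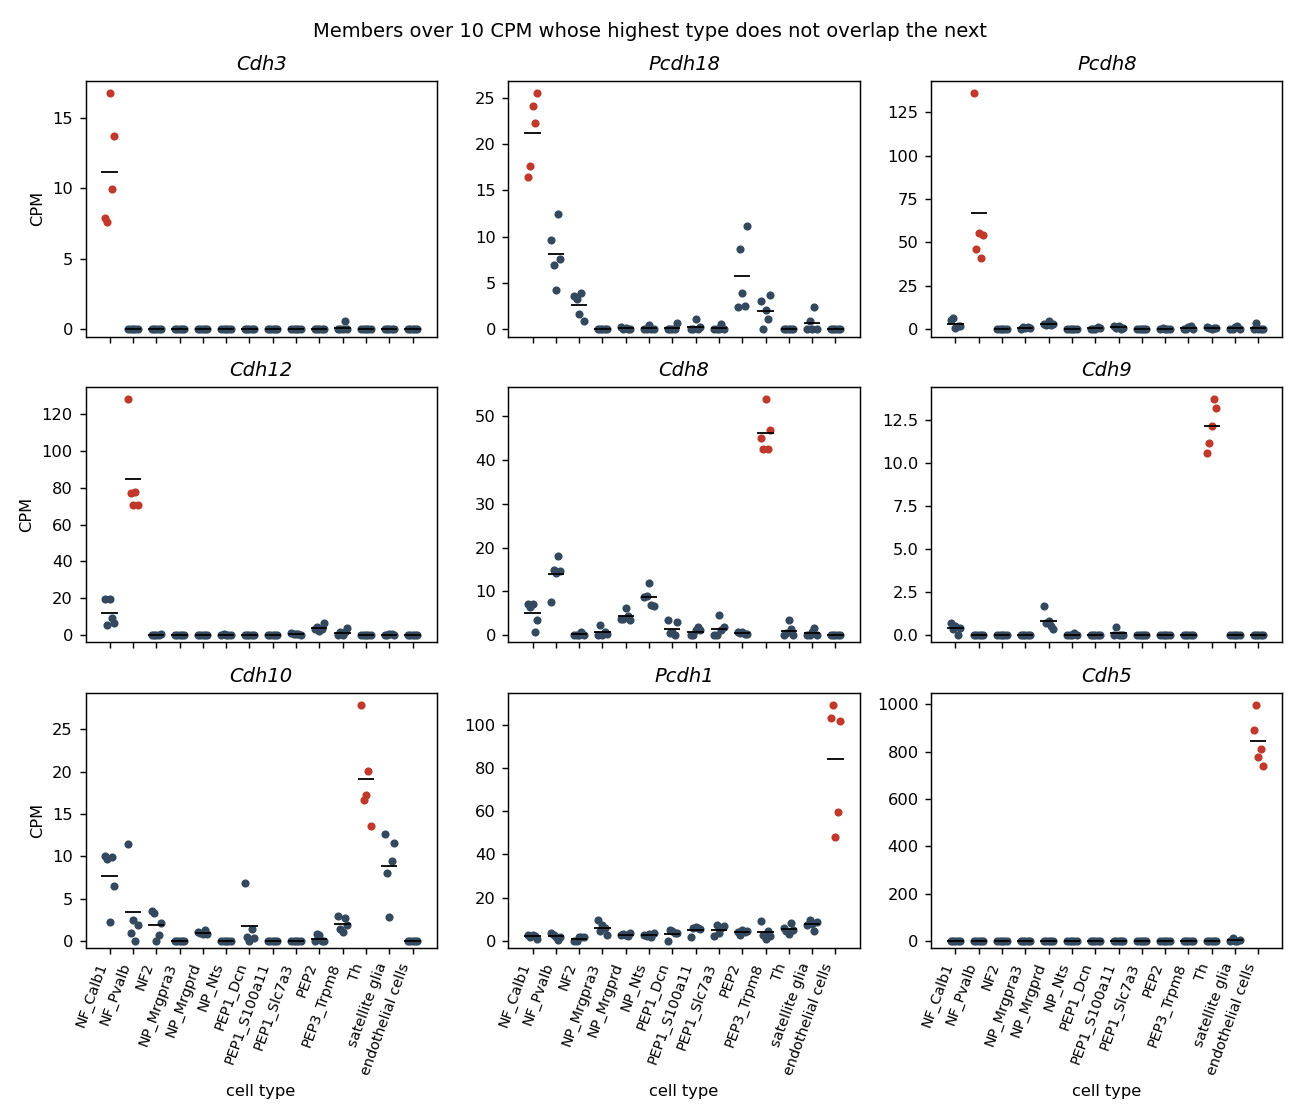
CPM in each of the 5 libraries (dots, libraries 1 to 5 from left to right within a type; line, mean) of the 9 members over 10 CPM whose highest type (red) did not overlap the next, in the 14 cell types. Library 1 is the highest for Cdh12 and Pcdh8 in NF_Pvalb, at 128.5 and 136 CPM, and Cdh9 lies between 10.6 and 13.7 CPM in Th.

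Satellite glia, the cells that wrap the neurons' bodies, had cadherins of both neurons and the Schwann lineage. Of 31 members tested in satellite glia, 14 were called higher than in neurons, above the 21.6% of all genes tested, and 3 lower, below the 32.6%. The median log2 fold was 1.03 for the members and -0.35 for all genes tested. The value for all genes was 0.03 by DESeq2 and -0.70 without the filter on low counts. Their own marker list of 6 genes summed to 90720.0 CPM in glia, led by Apoe, and to between 156 and 731 CPM in neuron types.

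Cdh19, a type II cadherin of Schwann-lineage cells, stood in satellite glia at 5.04, 10.7, 13.9, 7.92 and 5.78 CPM against 0.0240 in neurons, with 46 and 6 UMIs (edgeR, log2 fold 8.37, adjusted p = 3.5e-11, 5 of 5 libraries). It had a UMI in 15.3% of glia (9.24% thinned) and in 0.111% of NP_Mrgprd cells (0 thinned), at median depths of 17729.0 and 105150.0 UMIs. The type II genes Cdh6 and Cdh20 were higher too, at 7.62 ± 3.30 CPM against 0.191 (log2 fold 5.48, adjusted p = 3.4e-09) and 5.94 ± 2.08 against 0.194 (log2 fold 5.39, adjusted p = 1.9e-09), each in 5 of 5 libraries. The libraries of these genes lay clear of those of the pooled neurons, but Cdh20 in NF_Pvalb, at 3.32 ± 1.85 CPM, overlapped with glia. Cdh6 had a UMI in 3 of the 38 glia with Cdh19, or 7.89%, and in 13.3% of those without.

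Pcdh10 stood in satellite glia at 108, 100.6, 67.3, 75.2 and 72.2 CPM against 13.7 in neurons (edgeR, log2 fold 2.77, adjusted p = 3.1e-11, 5 of 5 libraries). Cdh11 stood at 88.3, 67.7, 52.0, 89.5 and 75.1 CPM against 29.2 (log2 fold 1.48, adjusted p = 8e-08, 5 of 5 libraries). Neither overlapped with the neurons as a whole. Cdh1 stood at 63.0, 93.5, 73.5, 70.5 and 78.0 CPM against 41.5, and its call (log2 fold 1.05, adjusted p = 5e-06, 5 of 5 libraries) was lost without library 3 (0.98, adjusted p = 6.7e-05) and without the filter on low counts (0.93, adjusted p = 1.5e-05). The neuron marker list of 7 genes summed to 557 ± 224 CPM in glia, led by Tubb3, and to 13510.0 ± 453 CPM in NP_Mrgprd, led by Prph. Its part in the glial level of Cdh1 and Cdh11 was not tested. Pcdhb9 and Pcdhb7 were higher, at 27.7, 6.23, 11.8, 15.0 and 23.1 CPM against 4.54 (log2 fold 1.84, adjusted p = 3.1e-05, 5 of 5 libraries) and at 10.1 ± 3.37 CPM against 2.85 (log2 fold 1.93, adjusted p = 3.3e-06, 5 of 5 libraries). Cdh12 had 2 UMIs, a ratio of 0.113 to neurons with a counting interval from 0.0137 to 0.410 (adjusted p = 0.0038), and that call was lost without library 3 (adjusted p = 0.016).

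Endothelial cells were dominated by VE-cadherin, Cdh5, the cadherin of vessel wall junctions, and by Pcdh17. Libraries 1 to 5 held 3, 16, 16, 14 and 7 of these cells, so each value of library 1, also a 0, rests on 3 cells. In endothelial cells 4 of 22 members tested were called higher than in neurons, near the 14.9% of all genes tested, and 6 lower, against 43.9%. Lower calls were 10 of 22 with the library as a replicate block and 4 without library 1 (32 tested) or library 3 (22 tested). DESeq2, which tested all 80, called 9 higher and 5 lower. The median log2 fold was -2.17 for the members, or -1.89 with members at 0 UMIs put at their bound, and -1.25 for all genes tested. This last value moved with the setting: it was -0.03 by DESeq2, -0.56 after thinning to 10000 UMIs, -0.74 without library 5 and -0.81 without library 1. The list of 8 endothelial markers summed to 7597 ± 1462 CPM here, led by Cldn5, and to 32.4 ± 47.4 CPM in satellite glia. Markers of other cells were present too: 5 mural cell markers, led by Rgs5, summed to 263 ± 257 CPM (721 in library 1), and 7 neuron markers to 629 ± 308 CPM (1099 in library 5). The part of such cells or RNA in the endothelial values was not tested.

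Cdh5 stood in endothelial cells at 892, 999, 779, 809 and 739 CPM against 0.119 in neurons (edgeR, log2 fold 12.32, adjusted p = 2.5e-17, 5 of 5 libraries). It had a UMI in all 56 endothelial cells (all of them thinned too), in 2.01% of satellite glia (2.01% thinned) and in 0.556% of NP_Mrgprd cells (0 thinned), at median depths of 16889.0, 17729.0 and 105150.0 UMIs. Pcdh1, a delta-1 gene, stood at 103, 109, 48.0, 59.6 and 102 CPM against 3.54 (log2 fold 4.13, adjusted p = 2.2e-11, 5 of 5 libraries). Pcdh17 stood at 412, 602, 749.5, 268 and 425 CPM against 65.2 (log2 fold 2.61, adjusted p = 2.3e-07, 5 of 5 libraries). The lowest library of each of these genes was above all libraries of the pooled neurons, although PEP2_Htr3a.Sema5a alone reached 309 CPM of Pcdh17 in library 3, above the endothelial library 4. Cdh13 was called higher, at 0, 13.2, 7.38, 14.9 and 36.96 CPM against 1.47 (log2 fold 2.83, adjusted p = 0.00012, higher in 4 of 5 libraries). Its groups overlapped, and without library 5 its mean fell from 14.5 to 8.88 CPM. Pcdh12, also known from vessels, had 5 UMIs in endothelial cells.

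Cdh11 had 0 UMIs in endothelial cells and 6651 in neurons, at least 9.53-fold lower (edgeR, adjusted p = 1.3e-06, lower in 5 of 5 libraries). Cdh2 had 2 UMIs, a ratio of 0.0744 with a counting interval from 0.00901 to 0.269. Cdh1 had 6 UMIs, at 0, 13.2, 0, 0 and 18.5 CPM against 41.5 (log2 fold -3.06, adjusted p = 2.3e-05, lower in 5 of 5 libraries), so that all of it came from libraries 2 and 5. Pcdh10, with 3 UMIs in the same libraries, had a ratio of 0.240 with a counting interval from 0.0495 to 0.702. Its call (adjusted p = 0.0016) was lost without library 1, 3 or 5, at adjusted p = 0.017, 0.013 and 0.01, and with libraries of at least 10 cells (adjusted p = 0.015). The glial marker list of 6 genes, led by Apoe, summed to 1527, 6156, 3161, 1758 and 15250.0 CPM in the endothelial libraries, also highest in libraries 2 and 5, and its part in these values was not tested. With the library as a replicate block 4 more members were called lower in endothelial cells: Cdh12 with 0 UMIs (adjusted p = 0.0061), Cdh15 (log2 fold -1.84, adjusted p = 0.0012), Cdh4 (-3.23, adjusted p = 0.0033) and Pcdh7 (-2.81, adjusted p = 0.0009). By group alone their adjusted p was 0.043, 0.02, 0.018 and 0.031.

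Ordered by level, E-cadherin Cdh1 was high in a few types and fell by degrees over the rest. Th at 80.2 ± 12.6, NP_Mrgprd at 80.1 ± 9.83 and satellite glia at 75.7 ± 11.3 CPM did not differ beyond their spread. NF_Calb1 followed at 28.4 ± 11.9 and NF2_Ntrk2.Necab2 at 13.9 ± 2.54 CPM, and the lowest were NF_Pvalb at 0.827 ± 0.847 and NP_Nts at 0.586 ± 0.599 CPM. N-cadherin Cdh2 was spread more evenly, from 84.5 ± 11.6 CPM in PEP1_Dcn to 22.4 in Th among the types other than NP_Mrgprd and endothelial cells. Cdh1 was called in 13 of the 14 comparisons, 3 times higher and 10 times lower.

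Pcdh17 was the member with the most UMIs, 13047, and it moved with the library. It exceeded 10 CPM in 12 types. Library 3 was highest in 8 of these types, library 2 in 3 and library 1 in 1. Library 4 was lowest in 9, library 5 in 2 and library 1 in 1. In NP_Nts the range was from 53.9 CPM in library 4 to 249 in library 3. Of Pcdh9, with 9 types over 10 CPM, library 3 was highest in 3, as was library 1. The labels name no batch, so that animal and processing cannot be told apart.

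Of the 80 members 78 had a symbol that names a single gene in the GENCODE annotation of GRCm38, and 48 of these lie on chromosome 18, where the clusters are. The 47 clustered genes together were counted with far fewer UMIs than Pcdh17 alone: 1057 for Pcdha, 5912 for Pcdhb and 402 for Pcdhg. All 13 Pcdha genes with GENCODE transcripts, including Pcdha11, whose symbol names more than 1 gene there, shared every 55-base window of the last 500 bases of their transcripts with another Pcdha gene, and the 13 Pcdhg genes likewise. UMIs of single genes within these clusters, Pcdhac1 among them, are therefore uncertain. A read from a shared end cannot be given to 1 gene, so the totals of Pcdha and Pcdhg may be too low. These totals alone do not show low expression. The Pcdhb genes have separate 3′ ends, with the exception of Pcdhb21, which shared 89.9% of its windows with the overlapping Pcdhb22. Of 20 Pcdhb genes 15 were tested in some comparison.

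The Pcdhb sum was highest in NF_Pvalb at 72.4 ± 20.9 CPM and in satellite glia at 61.4 ± 16.1, and lowest in NP_Mrgprd at 17.2 ± 2.70 and NP_Nts at 17.5 ± 2.36. In NF_Pvalb 6 of 8 Pcdhb genes tested were called higher, against 13.9% of all genes. Among them Pcdhb20 stood at 19.2, 23.7, 10.1, 3.74 and 11.6 CPM against 2.81 in other neurons (edgeR, log2 fold 2.14, adjusted p = 1.6e-05, 5 of 5 libraries). The others were Pcdhb16, Pcdhb17, Pcdhb21 and Pcdhb22, at 6.96 ± 5.97, 5.68 ± 2.38, 8.42 ± 3.64 and 5.79 ± 1.42 CPM, and Pcdhb9, at 9.42 ± 3.76 CPM against 4.39 (log2 fold 1.09, adjusted p = 0.0017, 4 of 5 libraries). The call of Pcdhb9 was lost without library 2 (0.87, adjusted p = 0.017), without library 4 (log2 fold just under the limit, adjusted p = 0.0089) and without library 5 (1.07, adjusted p = 0.016), and also without the filter on low counts (0.99, adjusted p = 0.0032). In NF2_Ntrk2.Necab2 the genes Pcdhb3, at 4.10 ± 2.18 CPM (log2 fold 2.40, adjusted p = 8.9e-05, 5 of 5 libraries), and Pcdhb5, 15.8 kb apart, were called higher. In satellite glia Pcdhb9 and Pcdhb7 were among those called higher. Whether types differ in the set of Pcdhb genes was not tested.

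**Figure D3:**
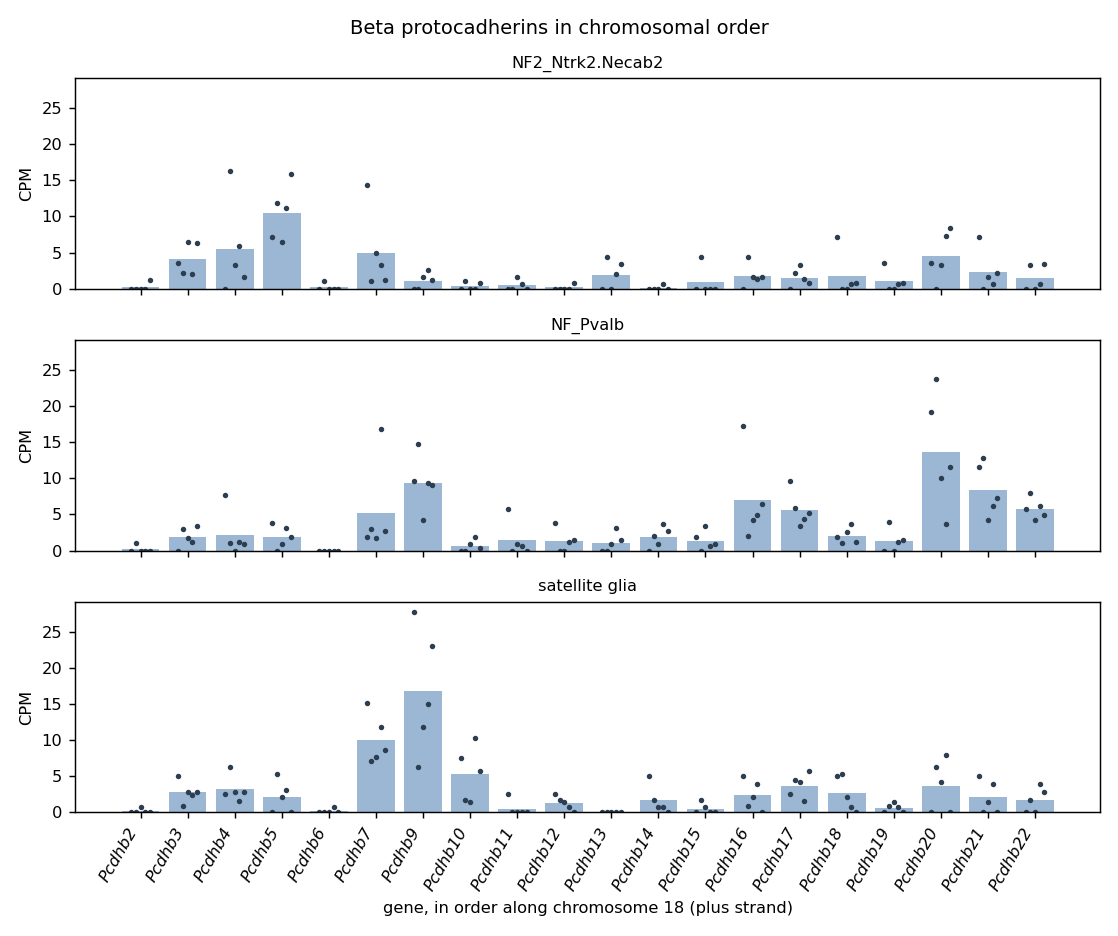
CPM of the 20 Pcdhb genes in their order along chromosome 18 in NF2_Ntrk2.Necab2, NF_Pvalb and satellite glia (bars, mean of 5 libraries; dots, libraries). The tallest bar is Pcdhb5 in NF2_Ntrk2.Necab2 at 10.5 CPM, Pcdhb20 in NF_Pvalb at 13.7 CPM and Pcdhb9 in satellite glia at 16.8 CPM.

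In single cells few clustered genes were seen. After thinning to 10000 UMIs, which lost no cell, the median number of clustered genes with a UMI was 0 in neurons, 0.2 ± 0.447 in satellite glia and 0 in endothelial cells (mean of 5 library medians). Without thinning it was 1.6 ± 0.548, 1.0 and 0.1 ± 0.224. As a mean over cells, a summary chosen after the data were seen, neurons had 0.387 ± 0.0717 clustered genes per thinned cell, NF2_Ntrk2.Necab2 0.733 ± 0.396, NF_Pvalb 0.727 ± 0.131, satellite glia 0.520 ± 0.118 and endothelial cells 0.179 ± 0.142. Of 3047 neurons 885 had any such UMI after thinning, and the most in a cell was 5. Without thinning the most was 10, in NP_Mrgprd. A cell that shows no clustered gene at this depth may still express some. The shared 3′ ends may also lower the number of Pcdha and Pcdhg genes seen per cell.

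Outside the clusters, neighbouring members did not share a type throughout. On chromosome 15, Cdh9, Cdh10 and Cdh12 follow each other on the same strand with no protein-coding gene between them, at gaps of 1962 kb and 1435 kb. Cdh9 and Cdh10 were both highest in Th, and Cdh12 was highest in NF_Pvalb with 0 UMIs in Th. Cdh18, 959 kb beyond Cdh12, had 95 UMIs in all. On chromosome 8, Cdh3 and Cdh1 are 46.1 kb apart, with 1 protein-coding gene between them. Cdh3 was highest in NF_Calb1, while Cdh1 was about equally high in Th, NP_Mrgprd and satellite glia.

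Promoter sequences from RefSeq (GRCm38.p6, 250 bases before to 50 after the start) were held for 22 members with 25 promoters. They are shown for Cdh9, Cdh10 and Cdh12, the neighbours that differ between Th and NF_Pvalb, and for Pcdh8, which was high beside Cdh12 in NF_Pvalb. The RefSeq start of Cdh12 lies inside the GENCODE gene, chr15:20449265-21589533, whose own start gave the gap to Cdh10. Capitals mark matches, on either strand, to the 3 motifs searched. The RUNX core was searched as TGTGGT in all promoters of the table. For the GC box the letters searched were GGGCGG, likewise in all promoters. The letters searched for the TATA box were TATAAA.
Cdh9, chr15:16728665-16728964, plus strand: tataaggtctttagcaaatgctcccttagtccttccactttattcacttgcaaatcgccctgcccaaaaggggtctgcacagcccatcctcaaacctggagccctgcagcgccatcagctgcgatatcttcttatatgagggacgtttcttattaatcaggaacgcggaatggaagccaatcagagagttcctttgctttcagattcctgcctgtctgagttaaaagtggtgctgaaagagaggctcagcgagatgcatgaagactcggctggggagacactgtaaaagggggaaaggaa
Cdh10, chr15:18820079-18820378, plus strand: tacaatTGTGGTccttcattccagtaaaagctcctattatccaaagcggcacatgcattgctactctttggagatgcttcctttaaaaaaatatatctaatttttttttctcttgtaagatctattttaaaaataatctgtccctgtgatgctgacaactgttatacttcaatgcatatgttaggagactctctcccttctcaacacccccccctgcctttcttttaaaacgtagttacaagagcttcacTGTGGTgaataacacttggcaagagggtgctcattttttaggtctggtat
Cdh12, chr15:21111202-21111501, plus strand: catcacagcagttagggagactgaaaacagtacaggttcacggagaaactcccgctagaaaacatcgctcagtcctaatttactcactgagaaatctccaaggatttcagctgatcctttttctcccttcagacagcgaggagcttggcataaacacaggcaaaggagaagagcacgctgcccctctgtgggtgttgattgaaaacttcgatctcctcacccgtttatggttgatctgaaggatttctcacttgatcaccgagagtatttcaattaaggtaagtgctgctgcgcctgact
Pcdh8, chr14:79771263-79771562, minus strand: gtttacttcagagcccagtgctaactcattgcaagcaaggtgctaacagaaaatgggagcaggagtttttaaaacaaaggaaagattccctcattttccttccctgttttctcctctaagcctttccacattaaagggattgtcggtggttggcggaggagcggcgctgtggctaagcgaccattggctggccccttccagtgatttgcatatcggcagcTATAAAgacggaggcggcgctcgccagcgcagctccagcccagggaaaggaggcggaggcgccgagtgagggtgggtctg

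The Cdh10 promoter held 2 matches to the RUNX core letters and the Pcdh8 promoter 1 to the TATA box letters, and the others shown held none. Over the 25 member promoters, none of them from the clusters, the RUNX core letters occurred in 4, against 16.8% of all 32851 promoters. The GC box letters occurred in 9, against 35.7%, and the TATA box letters in 2, against 13.6%. The median GC content was 60.3% for these member promoters and 52.7% for all. These shares are near the background, and a match to letters is a description only.

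Of genes related to the family, the list of other cadherin superfamily genes had 15 of its 25 in the matrix. Of these, 6 of 8 tested were called higher in NF_Pvalb, against 13.9% of all genes, 5 of 8 in NF_Calb1, against 15.0%, 4 of 10 in satellite glia, against 21.6%, and 3 of 8 in Th, against 7.34%. Other types had at most 2. Lower calls were 7 of 7 in endothelial cells, against 43.9% of all genes, 6 of 10 in NP_Mrgprd, against 19.7%, and 6 of 10 in satellite glia, against 32.6%. They were 5 of 7 in NP_Nts, against 17.0%, 4 of 7 in PEP3_Trpm8, against 10.9%, and at most 3 in other types. Clstn1, a calsyntenin of nerve endings, stood at 511 ± 59.1 CPM in NF_Calb1 (edgeR, log2 fold 1.81, adjusted p = 1.8e-09, 5 of 5 libraries) and at 30.4 ± 10.4 in NP_Nts (log2 fold -2.68, adjusted p = 1.3e-08, lower in 5 of 5). Cdhr1, known from photoreceptors, stood at 113 ± 12.5 CPM in PEP1_S100a11.Tagln2 (log2 fold 2.58, adjusted p = 7.4e-09, 5 of 5 libraries) and at 0.635 ± 0.429 in NP_Mrgprd.

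All 11 catenins were in the matrix, and 10 were tested. Neuron types had at most 2 higher calls, those in PEP1_Slc7a3.Sstr2 against 7.77% of all genes, and at most 3 lower, the latter in NP_Mrgprd and NP_Nts, against 19.7% and 17.0% of all genes. Satellite glia had 5 higher, against 21.6%, and 4 lower, against 32.6%, and endothelial cells 4 higher, against 14.9%, and 3 lower, against 43.9%. Jup, or plakoglobin, was high in PEP2_Htr3a.Sema5a, at 382 ± 32.8 CPM (edgeR, log2 fold 1.87, adjusted p = 1.6e-07, 5 of 5 libraries), and low in NP_Mrgprd, at 28.9 ± 8.98 (log2 fold -2.45, adjusted p = 2.4e-08, lower in 5 of 5). In PEP1_Dcn, where Cdh2 was highest, 0 of 10 catenins tested were called higher, near the 7.66% of all genes. Calls of lower catenins there numbered 2, against 7.64%, and the median log2 fold of the list was 0.39. Other neuron types, NP_Mrgprd and PEP3_Trpm8 among them, also had 0 catenins called higher. Jup was lowest in satellite glia, at 7.71 ± 4.74 CPM. Ctnnb1, or beta-catenin, was called in none of the 14 comparisons, at levels from 78.0 ± 9.13 CPM in PEP3_Trpm8 to 228 ± 34.8 in endothelial cells.

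Of 12 chromatin factors that act on the clustered genes, such as cohesin and its loader, 11 were in the matrix and 10 tested. Satellite glia had 5 of them higher, against 21.6% of all genes, and endothelial cells 4, against 14.9%. Nipbl stood at 117 ± 19.9 CPM in satellite glia (edgeR, log2 fold 1.96, adjusted p = 1.2e-10, 5 of 5 libraries), and Smc1a at 171 ± 21.3 in endothelial cells (log2 fold 1.41, adjusted p = 9.2e-07, 5 of 5 libraries). Neuron types had few calls in this list, 2 lower in NF2_Ntrk2.Necab2, against 12.8% of all genes, 1 lower in NP_Mrgpra3, against 10.8%, and 1 higher in PEP3_Trpm8, against 8.02%. Of 9 partners of the tip-link proteins Pcdh15 and Cdh23, 8 were in the matrix. PEP2_Htr3a.Sema5a had 3 of 6 tested higher, against 9.08% of all genes, and PEP1_Dcn 2 of 5, against 7.66%, the types where Pcdh15 was highest. PEP1_S100a11.Tagln2 had 2 of 6, against 4.76%. Lower calls were 4 of 6 in NP_Mrgprd, against 19.7%, 4 of 6 in NP_Nts, against 17.0%, and 2 of 5 in NP_Mrgpra3, against 10.8%. They were 3 of 5 in NF2_Ntrk2.Necab2, against 12.8%, in Th, against 12.4%, in satellite glia, against 32.6%, and in endothelial cells, against 43.9%. Cib2 stood at 109 ± 21.7 CPM in PEP2_Htr3a.Sema5a (log2 fold 1.37, adjusted p = 5.2e-07, 5 of 5 libraries) and 96.4 ± 12.5 in PEP1_Dcn (log2 fold 1.10, adjusted p = 1.7e-06, 5 of 5 libraries). Lhfpl5 stood highest in PEP3_Trpm8, at 109 ± 24.4 CPM (log2 fold 1.56, adjusted p = 5.3e-08, 5 of 5 libraries).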

How the data were processed

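The authors deposited raw UMI counts, made with Cell Ranger on mm10 per the methods of their paper, and a cell type per cell, annotated with Seurat. All deposited cells were kept, and no doublet caller was run here. Each of the 5 library identifiers was taken as 1 mouse; libraries were not mapped to sample labels. The 4 rows that name no mouse gene, with 6.37e-05% of UMIs, stayed out of library sizes and tests.

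From the counts, UMIs were summed per type and library and scaled to CPM. edgeR 4.0.16 in R 4.3.3 (TMM, filterByExpr defaults, quasi-likelihood test) compared the sums, and its script was tested on simulated data. DESeq2 1.42.0, Python 3.11.15, numpy 2.4.6, scipy 1.17.1, pandas 2.3.3 and matplotlib 3.10.9 were also used. Both sums of a library carry the same library identifier in the cell names, taken here as 1 animal. The correlation of the deviations of these sums from the group means lay between 0.0089 and 0.41. The model had no term for the library.

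Members and lists were chosen with earlier results of these data known. Named genes were, per comparison, the 2 members with the largest fold called higher and the 1 called lower in every library; the 3 most abundant cadherins, non-clustered and clustered protocadherins; Cdh5, Cdh2 and Cdh19; and the 2 most abundant genes of each related list. Other members named, such as Cdh4 in NF_Calb1, Cdh15, Cdh20, Cdh22, Pcdh12 and Pcdhb3, were chosen after their values were seen. A fold against 0 UMIs is a bound with 3 counts over the group. Intervals are exact at 95%, and these and bounds cover counting error only.

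The alternatives were DESeq2, no filter on low counts, libraries with at least 10 cells of the type, the library as a block, all other cells as the comparison group, an adjusted p under 0.05, a UMI in at least 25% of the cells of the higher group, thinning to 10000 UMIs, dropping cells over 10% mitochondrial, leaving out each library, means over cells (for the clustered genes chosen after seeing the data), and thinning to 5000 or 20000 UMIs or not at all.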

Additional observations from a re-analysis of the deposited data

Results flagged for a closer look

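In 7 of 41 groups of 5 library values examined, 1 library lay far from the other 4; chance gives this in about 1 in 20 groups. In NF_Pvalb, library 1 with 6 cells held 128.5 CPM of Cdh12, from 67 UMIs, while the others lay between 70.5 and 77.9. The same library held 136.1 CPM of Pcdh8, from 71 UMIs, with the others between 41.1 and 55.4. In PEP3_Trpm8, library 1 with 9 cells held 54.07 CPM of Pcdh19, from 18 UMIs, with the others between 30.3 and 34.8.

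In NF_Calb1, library 3 held 109.4 CPM of Pcdh7, from 430 UMIs, and the others lay between 61.0 and 66.8. In PEP1_Dcn, library 2 held 105.1 CPM of Cdh2, from 256 UMIs, and the others lay between 78.0 and 80.8. For the remaining groups the other libraries were at 0: Cdh12 in NP_Mrgprd, with 0.02277 CPM from 1 UMI in library 5, and Pcdh8 in PEP2_Htr3a.Sema5a, with 0.7633 CPM from 3 UMIs in library 2. Causes were not tested.

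The 4 rows that name no mouse gene, which no comparison uses, held 143 UMIs, above the 3 that a count of 0 allows. They had 14, 34, 10, 29 and 56 UMIs in libraries 1 to 5.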

How the results depend on the processing

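Of 97 calls named by the rule, tested again 1326 times under the alternatives, 1251 were kept, 75 fell short of a call and none turned. A further 32 retests, all after thinning, could not be made. The 97 retests at an adjusted p under 0.05 are counted among those kept. They only loosen the threshold, so they could not lose a call and say nothing on stability. The replicate block changed no other call than those given with the types.

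Counts of members called moved most when a UMI was asked for in at least 25% of the higher cells or when cells were thinned to 10000 UMIs. With the 25% share NF2_Ntrk2.Necab2 went from 13 to 7, NP_Mrgpra3 from 13 to 5, NP_Mrgprd from 22 to 6, NP_Nts from 14 to 4 and PEP1_Dcn from 12 to 7. PEP1_S100a11.Tagln2 went from 8 to 2, PEP1_Slc7a3.Sstr2 from 15 to 4, PEP2_Htr3a.Sema5a from 16 to 9, Th from 16 to 6 and satellite glia from 17 to 6.

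After thinning NF_Calb1 had 5 in place of 12, NF_Pvalb 10 in place of 22, NF2_Ntrk2.Necab2 2, NP_Mrgpra3 6, NP_Mrgprd 9, NP_Nts 6 and PEP1_Dcn 5. PEP1_S100a11.Tagln2 then had 2, PEP1_Slc7a3.Sstr2 7, PEP2_Htr3a.Sema5a 8, Th 4 and satellite glia 6. Without the filter on low counts NP_Nts had 22, and by DESeq2 PEP3_Trpm8 had 14 in place of 9. PEP1_S100a11.Tagln2 had 5 without library 2.

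Leaving out each library gave 10 to 14 called in NF_Calb1, 20 to 25 in NF_Pvalb, 10 to 14 in NF2_Ntrk2.Necab2, 10 to 14 in NP_Mrgpra3, 20 to 22 in NP_Mrgprd and 13 to 16 in NP_Nts. It gave 9 to 13 in PEP1_Dcn, 5 to 8 in PEP1_S100a11.Tagln2, 13 to 15 in PEP1_Slc7a3.Sstr2, 15 to 16 in PEP2_Htr3a.Sema5a and 8 to 11 in PEP3_Trpm8. In Th the range was 14 to 19, in satellite glia 16 to 19 and in endothelial cells 8 to 9.

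The median number of clustered genes per cell, 0 in neurons, became 0.4 at 20000 UMIs, 1.6 without thinning and 0.387 as a mean over cells, which was chosen after the data were seen. In satellite glia 0.2 became 1.0 without thinning, and leaving out a library gave 0 to 0.25. In endothelial cells 0 became 0.1 without thinning and 0.179 as that mean. Thinning to 20000 gave no value for glia and endothelial cells, as some libraries held none so deep.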
